A study of Mus musculus with 8 samples.

Results

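The 35 genes described here make, modify and break down the fatty acids and sphingolipids of myelin. They were chosen by name for their known roles, but with earlier results of these data known. All 35 were in a table of 23356 genes measured in sciatic nerve of mice aged 30 days. Each of the 35 passed the filter of a mean of at least 1 FPKM (fragments per kilobase, scaled to the mapped fragments) that left 12530 genes for testing. The lowest level of any of them in any library was 2.82 FPKM.

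Myelin is a spiral of Schwann cell membrane that is rich in lipid. Its fatty acids are built from acetyl-CoA by acetyl-CoA carboxylase and fatty acid synthase, and are then elongated and desaturated in the endoplasmic reticulum. Sphingolipid synthesis starts with serine palmitoyltransferase, runs through ceramide, and ends in galactosylceramide and its sulfated form sulfatide, which are typical of myelin, or in sphingomyelin and glucosylceramide, from which gangliosides are made. Lysosomal hydrolases take these lipids apart again, and inherited loss of galactosylceramidase or arylsulfatase A causes leukodystrophies that also affect peripheral nerve.

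Mice of the strain F1 C57BL/6;FVB/N were used, with 2 libraries for each of 4 genotypes. WT carried neither allele. Q215X/+ mice were heterozygous for the Q215X allele. HA-NRG1 type III/+ mice carried a transgene for the membrane-bound type III form of neuregulin 1, the axonal signal for myelination. HA-NRG1 type III/+:Q215X/+ mice, called the double here, carried both. The labels do not name the promoter that drives the transgene. The column names end in 0 or 1, called set 0 and set 1, and values are listed in that order. Whether replicate libraries were separate animals is not stated in the labels. The p-values therefore reflect spread among these libraries alone, and that spread may be technical.

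Total FPKM per library ran from 443733 to 530901, and the 35 genes together held 0.88% to 1.13% of it. Nrg1, below the filter, was at 0.204 and 0.164 FPKM in the WT pair and 0.326 and 0.190 in the Q215X/+ pair. It was at 0.393 and 0.312 with the transgene alone and 0.498 and 0.358 in the double. Within each set Nrg1 was higher with the transgene on either background, but libraries with and without the transgene overlapped. At these low levels Nrg1 gives no clear check of the labels. It is unknown if transgene transcripts count towards Nrg1. By Xist and Ddx3y the WT and double libraries were female and those of Q215X/+ male, while HA-NRG1 type III/+ was male in set 0 and female in set 1. Sex and genotype thus cannot be told apart where Q215X/+ is compared with WT or with the double, while the double and WT were of 1 sex. Of the 12 skeletal muscle markers, the summed level was 1259 FPKM in the set 1 library of Q215X/+ and 8.75 to 103 in the others. The 5 red blood cell markers summed to 239 and 244 FPKM in WT nerve and 599 and 1279 in Q215X/+. They summed to 89.7 and 49.1 in HA-NRG1 type III/+ and 73.3 and 178 in the double. The sum of 10 fibroblast markers was 5849 to 6903 FPKM without the transgene and 6916 to 7619 with it. The part of these cell types in the differences below was not tested. In whole nerve, fewer cells of a type and less RNA per cell cannot be told apart.

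In WT nerve the 5 most abundant of the 35 genes were Scd2, Ugt8a, Cers2, Fa2h and Elovl1. Scd2, a stearoyl-CoA desaturase that introduces the first double bond, stood at 1158 ± 184 FPKM (SD, n = 2). Ugt8a, which transfers galactose to ceramide, stood at 824 ± 10.4, and Cers2, the ceramide synthase for very long acyl chains, at 492 ± 5.04. Fa2h, which hydroxylates the fatty acid of myelin galactolipids, stood at 372 ± 1.92, and the elongase gene Elovl1 at 333 ± 5.63. The least abundant were Sgms2, a sphingomyelin synthase, at 4.03 ± 0.314 FPKM, and Degs2, a dihydroceramide desaturase and hydroxylase, at 4.49 ± 0.643. Degs1, the other dihydroceramide desaturase, stood at 123 ± 0.677.

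The transgene comparison over both backgrounds sets the 4 libraries with HA-NRG1 type III against the 4 without. With the set as a replicate block, limma called 10 of the 35 genes, 5 higher and 5 lower, against 7.1% of all genes tested. Me1, Elovl5, Elovl7, Sgms1 and Galc rose, and Fads1, Fads2, Acot1, Fa2h and B4galt6 fell. Without the block limma called 0 of the 35, against 0.99% of all genes, and 14 had an unadjusted p under 0.05, 7 in each direction, against 11.2%. The median log2 difference of the 35 was 0.04, beside −0.01 over all genes, so the set as a whole stood near 0 while members moved in opposite directions. In 6 of the 35 genes the 4 transgene libraries all lay above the 4 others, which held for 4.88% of all genes, and in 5 all lay below, which held for 5.2%. The first were Me1, Elovl5, Elovl7, Sgms1, Sgms2 and Galc, and the second Fads1, Acot1, Sptlc2, Fa2h and B4galt6.

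**Figure D1:**
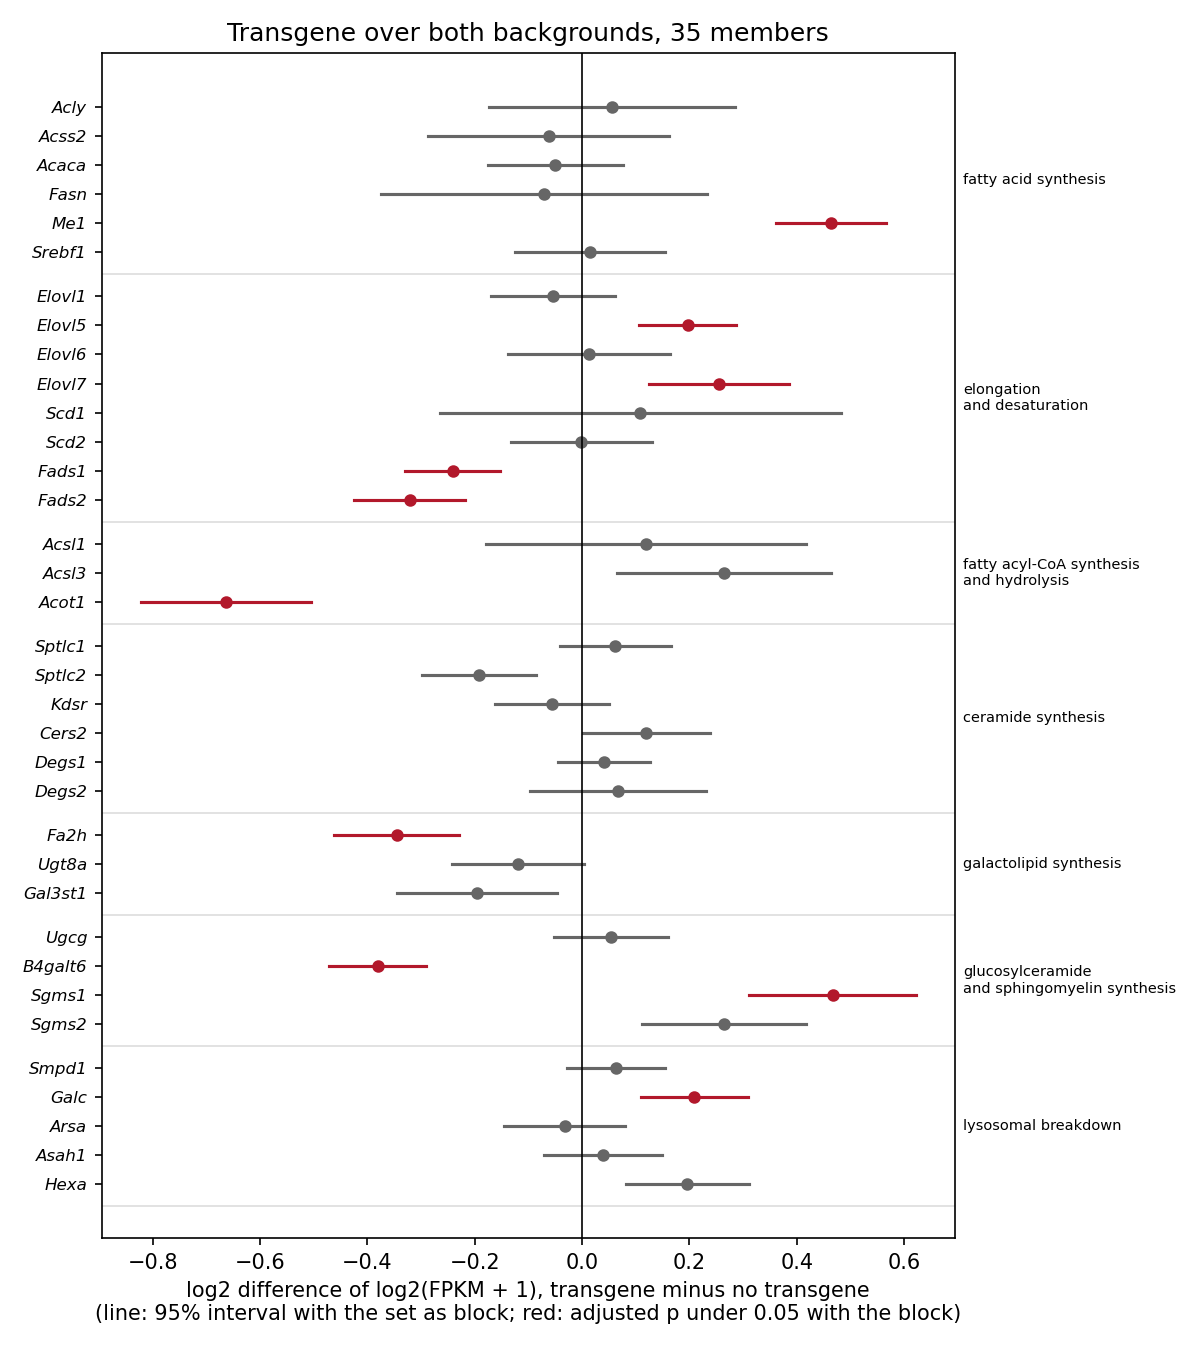
Log2 difference of log2(FPKM + 1) between the 4 libraries with and the 4 without the transgene (x axis) for each of the 35 genes (rows, grouped by role), with 95% intervals from the fit with the set as block. The 10 genes called with the block are red and range from −0.66 for Acot1 to 0.47 for Sgms1, while Fasn, Acaca, Acly and Srebf1 lie near 0.

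Of the 6 genes of fatty acid synthesis, only Me1 was called with the block. Me1 encodes cytosolic malic enzyme, which supplies NADPH for lipid synthesis. It stood at 35.9 and 31.6 FPKM in WT nerve, 36.7 and 36.5 in Q215X/+, 48.5 and 43.6 in HA-NRG1 type III/+ and 54.6 and 49.1 in the double. All 4 transgene libraries were above the 4 others. The log2 difference over both backgrounds was 0.46 (SE 0.04 with the block, limma adjusted p = 0.00513, and 0.0551 without it), and the mean level was 39.1% higher with the transgene. A stretch of 50 bases was shared with other genes over 26.5% of the Me1 transcript, mostly with the gene model Gm7049, so part of its reads may be uncertain.

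The other 5 genes of this step were not called. Fasn, which encodes fatty acid synthase, stood at 116.6 and 75.5 FPKM in WT nerve, 75.2 and 80.7 in Q215X/+, 79.2 and 84.8 in HA-NRG1 type III/+ and 80.8 and 80.7 in the double. The set 0 library of WT was high and the other 7 lay close together. The log2 difference over both backgrounds was −0.07, with a 95% interval of −0.37 to 0.23 with the block. Acaca, the acetyl-CoA carboxylase gene, had an interval of −0.18 to 0.08, and 52.6% of its transcript shares stretches of 50 bases with other gene models, so its reads are uncertain. Acly, which makes cytosolic acetyl-CoA from citrate, had one of −0.17 to 0.28, and Acss2, which makes it from acetate, one of −0.29 to 0.16. Srebf1, the transcription factor SREBP1 that drives these genes, stood at 22.5 to 26.7 FPKM over the 8 libraries, with an interval of −0.13 to 0.15. These intervals still hold changes of the size seen for Elovl5 in Fasn and Acly.

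Among the 8 genes of elongation and desaturation, 2 were called higher and 2 lower with the block. Elovl5, an elongase of polyunsaturated fatty acids, stood at 31.9 and 29.1 FPKM in WT nerve, 31.0 and 30.5 in Q215X/+, 34.96 and 32.1 in HA-NRG1 type III/+ and 38.7 and 35.5 in the double. The lowest transgene library was just above the highest of the others. Its log2 difference was 0.20 (SE 0.04 with the block, limma adjusted p = 0.0328). Elovl7, an elongase of saturated very long chains, stood at 49.7 and 58.6 FPKM in WT nerve, 50.4 and 54.7 in Q215X/+, 65.3 and 64.5 in HA-NRG1 type III/+ and 63.0 and 62.0 in the double. Its log2 difference was 0.26 (SE 0.05, adjusted p = 0.0449).

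Fads1 and Fads2, the delta-5 and delta-6 desaturases of polyunsaturated fatty acids, moved the other way. Fads1 stood at 168.7 and 149.8 FPKM in WT nerve, 156.5 and 146.4 in Q215X/+, 142.6 and 131.7 in HA-NRG1 type III/+ and 130.6 and 120.5 in the double. All 4 transgene libraries were below the 4 others, and the log2 difference was −0.24 (SE 0.04 with the block, limma adjusted p = 0.0165). Fads2 stood at 130.3 and 111.8 FPKM in WT nerve, 107.1 and 102.9 in Q215X/+, 108.2 and 93.9 in HA-NRG1 type III/+ and 84.1 and 76.4 in the double. The set 0 library of HA-NRG1 type III/+ lay above both Q215X/+ libraries, so the groups overlapped, but all 4 within-set differences between the same background with and without the transgene were below 0. The log2 difference was −0.32 (SE 0.04, adjusted p = 0.0115). The genes are neighbours on chromosome 19, Fads2 at 10062765 to 10101503 and Fads1 at 10182877 to 10196874 in GRCm38, the assembly of the mm10 build. Elovl5, which acts between them in the same pathway, was thus higher where both desaturases were lower.

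The stearoyl-CoA desaturase genes and the elongase genes Elovl1 and Elovl6 were not called. Scd2 ran from 911 to 1303 FPKM over the 8 libraries, with a log2 difference of 0.00 and a 95% interval of −0.13 to 0.13 with the block. Scd1 stood at 344.9 FPKM in the set 0 library of WT and at 194 to 272 in the other 7, with an interval of −0.26 to 0.48. Elovl1, for very long chains, and Elovl6, which elongates palmitate, had intervals of −0.17 to 0.06 and −0.14 to 0.17.

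The largest fall among the 35 genes was in Acot1, which encodes a cytosolic thioesterase that releases fatty acids from acyl-CoA. It stood at 9.87 and 14.8 FPKM in WT nerve, 11.0 and 15.02 in Q215X/+, 6.997 and 8.41 in HA-NRG1 type III/+ and 6.77 and 7.97 in the double. Set 1 was higher than set 0 in every genotype, and all 4 transgene libraries were below the 4 others. The mean level fell by 40.5% and the log2 difference was −0.66 (SE 0.07 with the block, limma adjusted p = 0.00542, and 0.143 without it). Over 33.2% of its transcript, stretches of 50 bases occur in other genes, 23.9% in Acot2 alone. Acot2, at 3.32 to 4.32 FPKM, had a log2 difference of −0.09 (adjusted p = 0.412 with the block). Acot1 lies on chromosome 12 at 84009502 to 84017670. Of the acyl-CoA synthetase genes, Acsl3 stood at 37.6 and 30.4 FPKM in WT nerve, 26.3 and 24.2 in Q215X/+, 40.0 and 46.9 in HA-NRG1 type III/+ and 29.0 and 28.6 in the double. Its 4 within-set transgene differences were all above 0, and its log2 difference of 0.27 (SE 0.08) was not called with the block (adjusted p = 0.12). Acsl1 had an interval of −0.18 to 0.42.

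**Figure D2:**
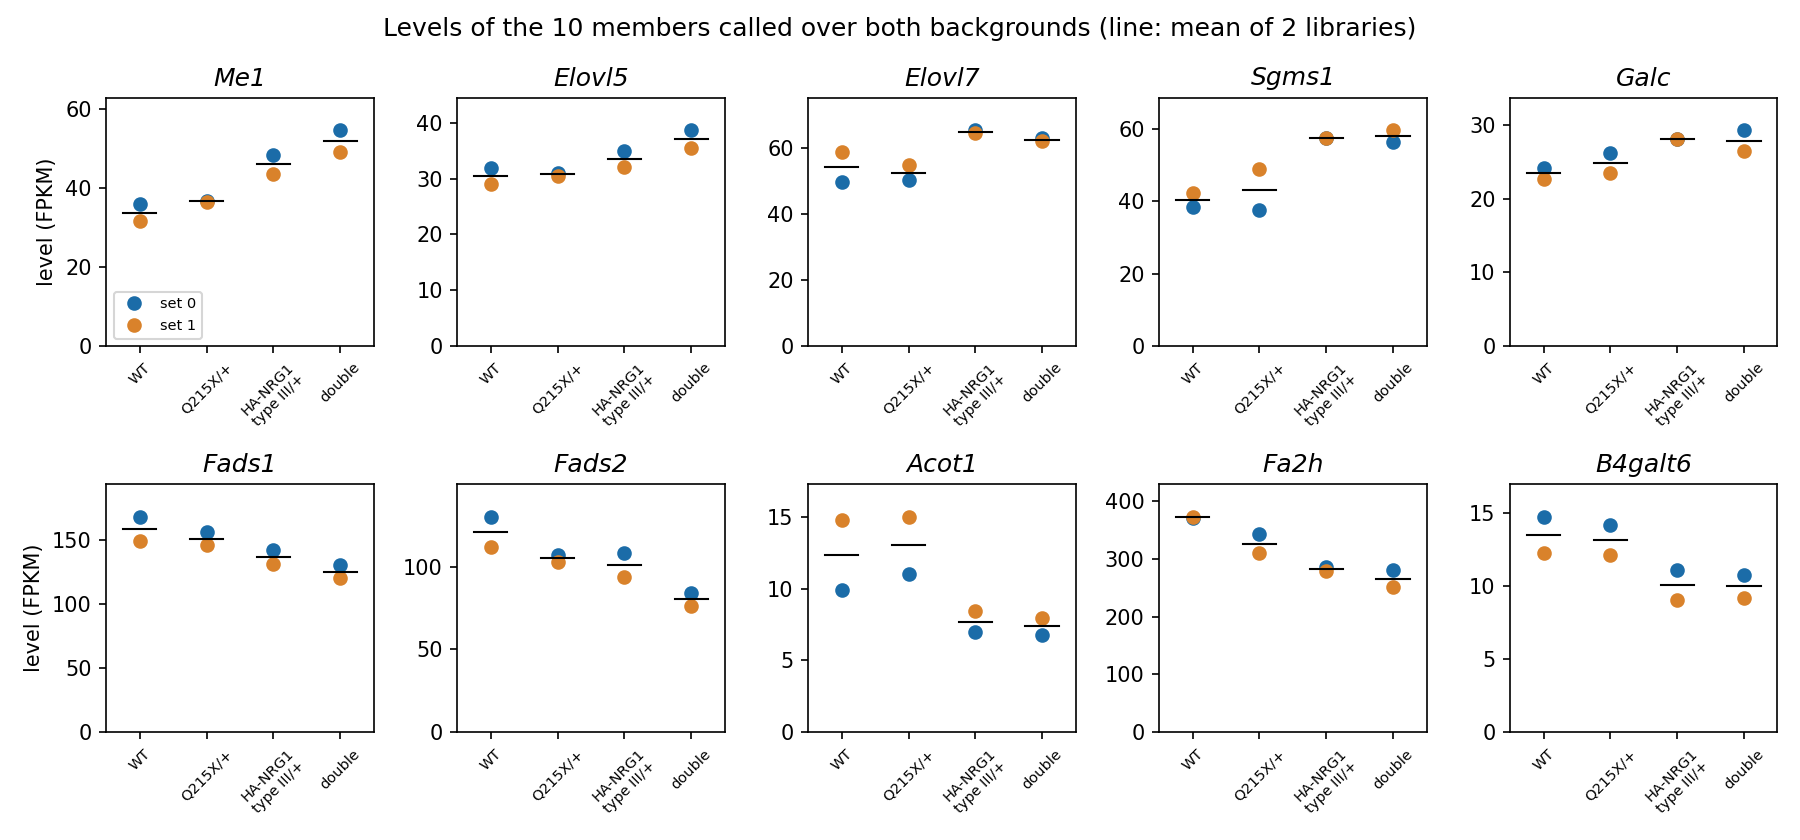
Level in FPKM (y axis, from 0) of the 10 genes called over both backgrounds with the block, by genotype (x axis). Each library is 1 point, coloured by set, and a line marks the mean of 2 libraries. In 9 of the 10 genes, all but Fads2, the 4 transgene libraries lie wholly above or wholly below the 4 others. Of all genes tested, 4.88% lie wholly above and 5.2% wholly below. The 10 genes were picked by this same comparison, so their separation is no further support.

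Of the 6 genes that build the ceramide backbone none was called over both backgrounds, without or with the block, and 2 had an unadjusted p under 0.05 in limma with the block, Sptlc2 and Cers2. Sptlc2, a subunit of serine palmitoyltransferase, stood at 60.2 and 60.1 FPKM in WT nerve, 63.3 and 55.4 in Q215X/+, 54.2 and 52.6 in HA-NRG1 type III/+ and 51.5 and 50.4 in the double. All 4 transgene libraries were below the 4 others, but the log2 difference of −0.19 (SE 0.04 with the block) was not called (limma adjusted p = 0.0569). Its partner Sptlc1 stood at 21.3 to 25.7 FPKM over the 8 libraries, with a 95% interval of −0.04 to 0.17. Kdsr, the next enzyme of the route, Degs1 and Degs2 had intervals that held 0. Cers2 stood at 488 and 495 FPKM in WT nerve, 488 and 507 in Q215X/+, 589 and 551 in HA-NRG1 type III/+ and 520 and 495 in the double. It was highest in HA-NRG1 type III/+, and its log2 difference over both backgrounds was 0.12, with an interval of 0.00 to 0.24, and it was not called.

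All 3 genes of galactolipid synthesis were lower in mean level with the transgene, and Fa2h was called with the block. Fa2h stood at 371 and 374 FPKM in WT nerve, 343 and 310.2 in Q215X/+, 287 and 279.5 in HA-NRG1 type III/+ and 280.2 and 252 in the double. The groups with and without the transgene did not overlap, and the log2 difference was −0.35 (SE 0.05 with the block, limma adjusted p = 0.0130). Gal3st1, the sulfotransferase that makes sulfatide, stood at 104.1 and 116.4 FPKM in WT nerve, 102.1 and 105.0 in Q215X/+, 104.0 and 95.8 in HA-NRG1 type III/+ and 91.7 and 82.0 in the double. Its log2 difference of −0.20 (SE 0.06) was not called (adjusted p = 0.122). Ugt8a stood at 817 and 831 FPKM in WT nerve, 751 and 764 in Q215X/+, 801 and 746 in HA-NRG1 type III/+ and 703 and 667 in the double, with an interval of −0.24 to 0.00. Fa2h lies on chromosome 8 at 111345138 to 111393821.

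Most markers of myelinating Schwann cells were lower as well. Of 16 such markers, 14 were lower with the transgene, with a median of −0.19. Over all genes tested the median was −0.01, and 46.7% were higher. With the block 5 markers were called lower and 2 higher, against 7.1% of all genes called. None of the markers was at 0. Their summed level was 81242 and 74240 FPKM in WT nerve and 65379 and 60949 in Q215X/+. It was 74871 and 70269 in HA-NRG1 type III/+ and 60165 and 56070 in the double. The part of this shift in the fall of Fa2h was not tested.

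The genes that give ceramide other head groups split. Sgms1, a Golgi sphingomyelin synthase, stood at 38.2 and 42.2 FPKM in WT nerve, 37.5 and 48.7 in Q215X/+, 57.4 and 57.5 in HA-NRG1 type III/+ and 56.3 and 59.6 in the double. All 4 transgene libraries were above the 4 others, and the mean was 38.4% higher. The log2 difference was 0.47 (SE 0.06 with the block, limma adjusted p = 0.0128, and 0.099 without it). Sgms2, at 2.82 to 5.20 FPKM, also had all 4 transgene libraries above the others, but its log2 difference of 0.26 (SE 0.06) was not called (adjusted p = 0.0626).

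B4galt6, a lactosylceramide synthase that leads on to gangliosides, moved against Sgms1. It stood at 14.8 and 12.3 FPKM in WT nerve, 14.2 and 12.2 in Q215X/+, 11.1 and 9.04 in HA-NRG1 type III/+ and 10.8 and 9.22 in the double. The 4 within-set differences ran from −0.41 to −0.37, and the log2 difference over both backgrounds was −0.38 (SE 0.04 with the block, limma adjusted p = 0.00531). Ugcg, which makes the glucosylceramide that B4galt6 uses, stood at 6.25 to 7.95 FPKM, with a 95% interval of −0.05 to 0.16. Sgms1 lies on chromosome 19 at 32122727 to 32389885 and Me1 on chromosome 9 at 86581363 to 86695914.

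Of the 5 lysosomal genes only Galc was called with the block. Galc encodes galactosylceramidase, which removes the galactose that the Ugt8a product carries. It stood at 24.2 and 22.7 FPKM in WT nerve, 26.2 and 23.4 in Q215X/+, 28.1 and 28.1 in HA-NRG1 type III/+ and 29.3 and 26.5 in the double. The groups did not overlap, by a margin of 26.5 to 26.2 FPKM, and the log2 difference was 0.21 (SE 0.04 with the block, limma adjusted p = 0.0363). Hexa, a subunit of beta-hexosaminidase, stood at 67.1 and 76.8 FPKM in WT nerve, 68.8 and 86.8 in Q215X/+, 74.8 and 93.4 in HA-NRG1 type III/+ and 83.4 and 91.7 in the double. It was higher in all 4 within-set differences, but was not called with the block. Smpd1, the acid sphingomyelinase gene, Asah1, the acid ceramidase gene, and Arsa, which encodes arylsulfatase A, had intervals of −0.03 to 0.15, −0.07 to 0.15 and −0.15 to 0.08.

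Macrophages are rich in lysosomes, and most of their markers were higher as well. Of 19 macrophage markers, 17 were higher with the transgene, with a median of 0.22. Over all genes tested 46.7% were higher, with a median of −0.01. With the block 5 markers were called higher and 1 lower, against 7.1% of all genes called. None of the markers was at 0. Their summed level was 601 and 684 FPKM in WT nerve and 636 and 674 in Q215X/+. It was 643 and 884 in HA-NRG1 type III/+ and 698 and 851 in the double. Their part in the rise of Galc was not tested.

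How firmly these 10 calls stand differed from gene to gene. With the block, the calls of Me1 and Acot1 held without any 1 of the 8 libraries, with largest adjusted p-values of 0.0484 and 0.0431. That of B4galt6 ended without the double library of set 0 (adjusted p = 0.0508). That of Fads2 ended without the set 1 library of HA-NRG1 type III/+ or without either double library, at up to 0.0896, and that of Fa2h without any 1 of the 4 transgene libraries, at up to 0.0946. The call of Sgms1 ended without either WT library, the set 0 library of HA-NRG1 type III/+ or either double library, at up to 0.0896, and that of Fads1 without the set 0 library of WT or any 1 transgene library, at up to 0.121. The call of Elovl5 held only without the set 1 library of Q215X/+, that of Elovl7 only without the set 1 library of WT, and that of Galc in none of these fits, at up to 0.176, 0.206 and 0.189. With a term for sex beside the block, Me1 (limma adjusted p = 0.0315), Acot1 (0.0339), B4galt6 (0.0340) and Sgms1 (0.0415) were still called. Fads1, Fads2, Fa2h, Elovl5, Elovl7 and Galc were not, at 0.0603 to 0.118. Only HA-NRG1 type III/+ held both sexes, so the term for sex rests on its 2 libraries. With this term the median difference of the 35 genes was 0.0365. It was the same with the block alone when the set 1 library of HA-NRG1 type III/+ was left out. The fit is thus no check on sex apart from the fits without 1 library.

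The transgene comparison was also made on each background alone, where the libraries compared do not overlap. In HA-NRG1 type III/+ against WT the block called 4 of the 35 genes, against 2.11% of all genes. Without the block limma called 0, against 0.0638%, and 8 had an unadjusted p under 0.05, against 6.9%. Me1 rose by 0.44 (SE 0.06 with the block, adjusted p = 0.035), while Acot1 fell by 0.59 (SE 0.09, 0.0422), Fa2h fell by 0.39 (SE 0.07, 0.0494) and B4galt6 fell by 0.39 (SE 0.05, 0.0336). Sgms1, with 0.51 (SE 0.09, adjusted p = 0.0553), Acsl3, with 0.35 (0.209), Elovl7, with 0.26 (0.163), and Galc, with 0.25 (0.0969), were among the 8 but were not called. A term for sex beside the block ended all 4 calls, with limma adjusted p from 0.175 to 0.289. The differences were then 0.42 for Me1, −0.67 for Acot1, −0.36 for Fa2h and −0.42 for B4galt6, with larger SEs of 0.07 to 0.12. Leaving out the male set 0 library of HA-NRG1 type III/+ gave the same differences with the block. The term for sex thus amounts here to setting that library aside.

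In the double against Q215X/+ the block likewise called 4 of the 35, against 1.72% of all genes. Without it limma called 0, against 0.0399%, and 8 had an unadjusted p under 0.05, against 6.58%. Me1 rose by 0.49 (SE 0.06 with the block, adjusted p = 0.0276), while Acot1 fell by 0.73 (SE 0.09, 0.0276), Fads2 fell by 0.39 (SE 0.06, 0.0439) and B4galt6 fell by 0.37 (SE 0.05, 0.038). Sgms1, with 0.43 (SE 0.09, adjusted p = 0.0873), Elovl5, with 0.26 (0.0784), Fads1, with −0.27 (0.0732), and Fa2h, with −0.30 (0.103), were not called. With a term for sex all 4 calls ended, at 0.651 to 0.771, in a comparison where sex and genotype cannot be told apart. The differences were then 0.53 for Me1, −0.58 for Acot1, −0.32 for Fads2 and −0.31 for B4galt6, with larger SEs of 0.10 to 0.18.

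**Figure D3:**
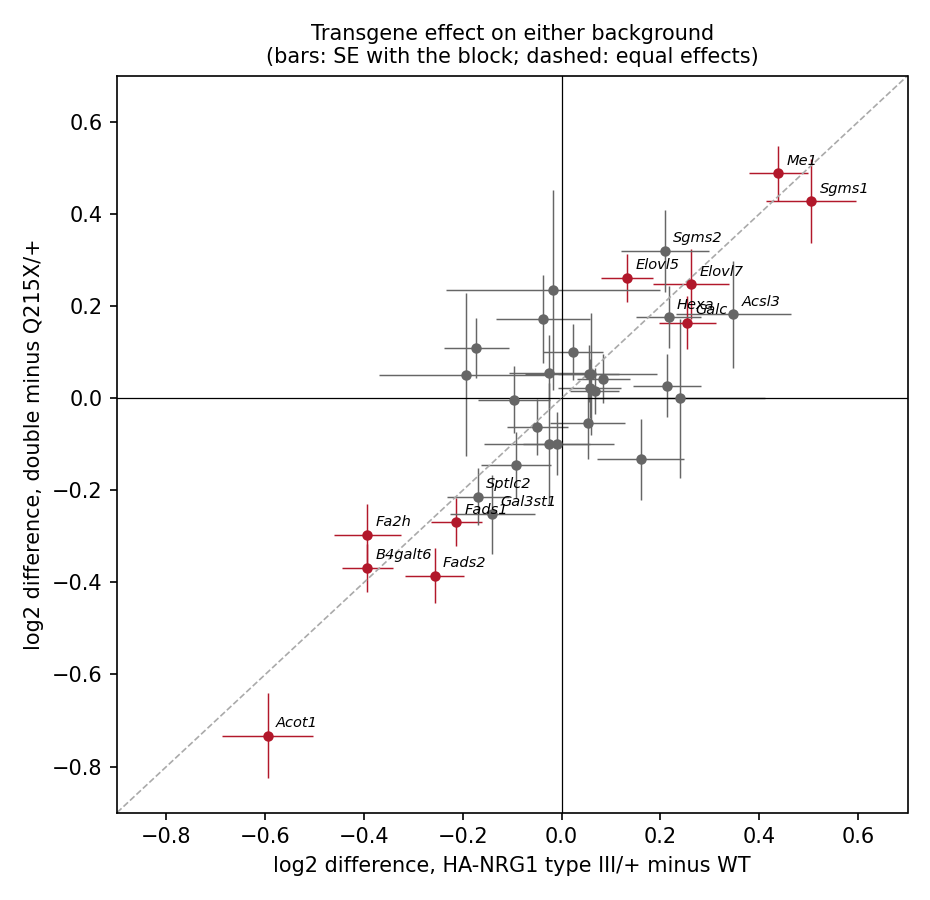
Log2 difference of each of the 35 genes in HA-NRG1 type III/+ minus WT (x axis) and in the double minus Q215X/+ (y axis), with SE bars from the fit with the block. The 10 genes in red, called over both backgrounds, lie near the dashed line of equal effects, from Acot1 at −0.59 and −0.73 to Me1 at 0.44 and 0.49.

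The difference between the transgene effects on the mutant and on the WT background was tested directly as an interaction. It was called for 0 of the 35 genes without and with the block, against 0.00798% of all genes in either fit. At an unadjusted p under 0.05 there were 0 without the block, against 1.11%, and 1 with it, Arsa, against 4.78%. The estimates ran from −0.29 for Elovl6 to 0.28 for Arsa. In 9 of the 35 genes all 4 within-set transgene differences were above 0, which held for 14.5% of all genes, and in 8 all were below, which held for 17.5%.

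The comparison of the double with WT sets nerves of 1 sex side by side, and holds the mutation as well as the transgene. The block called 7 of the 35 genes, 2 higher and 5 lower, against 2.39% of all genes. Without the block limma called 0, against 0.112%, and 11 had an unadjusted p under 0.05, against 7.29%. Me1 rose by 0.61 (SE 0.06 with the block, adjusted p = 0.0132), from 33.7 ± 3.0 to 51.8 ± 3.9 FPKM (SD, n = 2), and Sgms1 rose by 0.52 (SE 0.09, adjusted p = 0.0486). Fads2 fell by 0.58 (SE 0.06, adjusted p = 0.0148), from 121 ± 13.1 to 80.2 ± 5.4 FPKM (SD, n = 2). Acot1 fell by 0.65 (SE 0.09, adjusted p = 0.0304), Fa2h fell by 0.49 (SE 0.07, 0.0295), B4galt6 fell by 0.40 (SE 0.05, 0.0252) and Fads1 fell by 0.34 (SE 0.05, 0.0353).

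Elovl5, with 0.27 (SE 0.05, adjusted p = 0.0595), Galc, with 0.24 (0.1), Sptlc2, with −0.24 (0.121), and Gal3st1, with −0.34 (0.112), were not called in the double against WT. With a term for sex, which takes up 1 more degree of freedom here, Me1 (limma adjusted p = 0.0396) and Fads2 (0.0408) were still called. With the block, leaving out 1 library leaves 2 residual degrees of freedom. Calls also ended where the library left out was outside the comparison and the difference was unchanged. Me1 in the double against Q215X/+, for example, stayed at 0.49 without the set 0 library of WT. Of the calls on single comparisons, all 4 in the double against Q215X/+, and those of Acot1 and Fa2h in HA-NRG1 type III/+ against WT, ended in every fit that left out 1 library. Me1 and B4galt6 in HA-NRG1 type III/+ against WT were each called in 2 of 8 such fits. In the double against WT, Me1 and Fads2 were each called in 4, Acot1, Fa2h, B4galt6 and Sgms1 each in 2, and Fads1 in 1.

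In Q215X/+ against WT none of the 35 genes was called without or with the block, against 0.00798% of all genes in either fit. At an unadjusted limma p under 0.05 there were 2, both lower, against 2.04%, and with the block 6, all lower, against 7.41%. Acsl3 had a log2 difference of −0.41 (SE 0.13, adjusted p = 1), and Arsa, at 12.3 in both WT libraries and at 9.98 and 10.6 FPKM in those of Q215X/+, one of −0.24 (SE 0.08, adjusted p = 1). All 3 galactolipid genes were lower in mean level, with log2 differences from −0.19 to −0.09. Of the 35 genes, 12 lay above 0 and 23 below, with a median of −0.03. Over all genes tested 47.5% lay above 0, with a median of −0.01.

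For Fasn, Scd1 and Acly the difference between Q215X/+ and WT had opposite signs in the 2 sets. Fasn was lower in Q215X/+ by 0.63 log2 units in set 0 and higher by 0.09 in set 1. Scd1 was lower by 0.82 in set 0 and higher by 0.15 in set 1, and Acly lower by 0.42 and higher by 0.10. In each, the set 0 library of WT held the highest level of the 8. The 20 adipocyte markers summed to 1237 and 893 FPKM in WT nerve, 683 and 1750 in Q215X/+, 879 and 1076 in HA-NRG1 type III/+ and 1048 and 1280 in the double. Adipoq, the fat cell hormone adiponectin, stood at 62.2 and 39.9 FPKM in the WT pair, against 28.1 and 93.8 in the Q215X/+ pair, and of the defining markers only Cidea and Ucp1 were listed at 0 in any library. Between Q215X/+ and WT the adipocyte sum went the same way as Fasn, Scd1 and Acly in each set, lower in set 0 and higher in set 1. With the block 0 of 17 adipocyte markers tested were called over both backgrounds, and 0 had an unadjusted p under 0.05 in limma. The part of fat cells in Fasn, Scd1 and Acly was not tested.

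**Figure D4:**
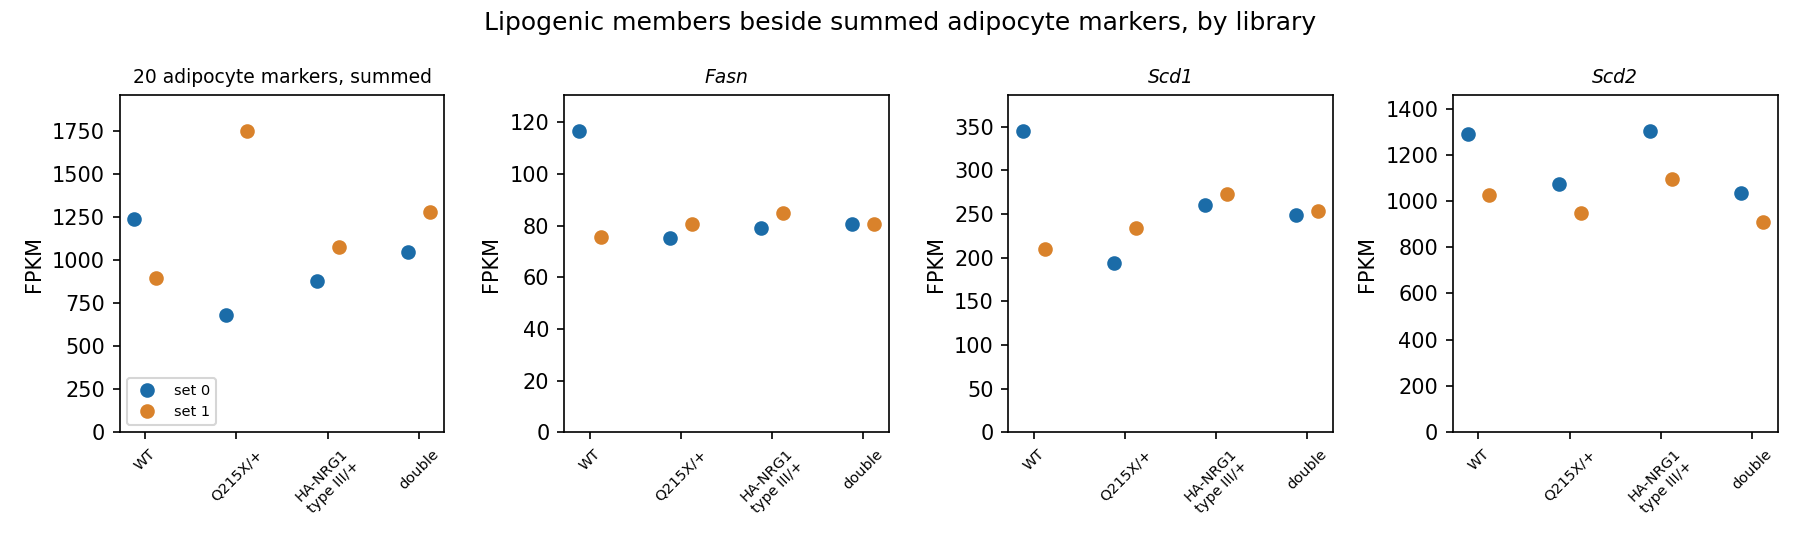
Summed level of 20 adipocyte markers and levels of Fasn, Scd1 and Scd2 (y axes, FPKM from 0) by genotype (x axes), with 1 point per library coloured by set. The set 0 library of WT stands apart for Fasn (116.6 FPKM) and Scd1 (344.9 FPKM), and the set 1 library of Q215X/+ for the adipocyte markers (1750 FPKM).

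Other genes of the same pathways were taken from lists by function. Over both backgrounds and with the block, 3 of 16 further genes of fatty acid synthesis, elongation and desaturation were called, against the same 7.1% of all genes. Fads6, a member of the fatty acid desaturase family, stood at 9.80 and 11.5 FPKM in WT nerve, 10.7 and 9.67 in Q215X/+, 5.89 and 6.38 in HA-NRG1 type III/+ and 6.35 and 6.37 in the double. It fell by 0.65 (limma adjusted p = 0.00531, and 0.0254 without the block). The mitochondrial acetyl-CoA synthetase gene Acss1 fell by 0.29 (adjusted p = 0.0206) and the related Acss3 rose by 0.55 (0.0461).

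Of 19 further genes of fatty acid activation, uptake and thioester hydrolysis, 2 were called higher and 2 lower, against 7.1% of all genes called. Them5, a mitochondrial thioesterase, stood at 24.4 and 32.1 FPKM in WT nerve, 36.9 and 51.2 in Q215X/+, 40.9 and 46.9 in HA-NRG1 type III/+ and 56.9 and 67.2 in the double, and rose by 0.56 (limma adjusted p = 0.00531 with the block, and 0.175 without). Acot7, a thioesterase abundant in neurons, rose by 0.39 (0.0108, and 0.0484 without). Acot11 fell by 0.32 (0.0233), and Acsbg1, an acyl-CoA synthetase, fell by 0.38 (0.0227). Thus 2 thioesterase genes fell, Acot1 and Acot11, while Them5 and Acot7 rose.

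Of 17 regulators of lipid synthesis only Mid1ip1, an activator of acetyl-CoA carboxylase, was called over both backgrounds, against 7.1% of all genes. It fell by 0.20 (limma adjusted p = 0.0373 with the block). In the double against WT 2 of the 17 were called, both lower, against the 2.39% of all genes given above. Mid1ip1 fell by 0.34 (adjusted p = 0.0421 with the block), and Insig1, which holds SREBP in the endoplasmic reticulum and is itself an SREBP target, went from 96.0 to 66.5 FPKM and fell by 0.52 (adjusted p = 0.0341 with the block). Over both backgrounds 1 of 31 genes of fatty acid oxidation was called, against 7.1% of all genes. This was the dienoyl-CoA isomerase gene Ech1, which fell by 0.25 (limma adjusted p = 0.0252). Of 30 further sphingolipid genes 2 were called, against the same 7.1%. St8sia5, a sialyltransferase of ganglioside synthesis, fell by 0.40 (0.0108), and Sgpp1, a sphingosine phosphate phosphatase, rose by 0.24 (0.0366). Of 26 further genes of glycolipid breakdown 2 were called, both higher, against the same 7.1%. Arsb, a lysosomal sulfatase, was among them and rose by 0.50 (0.0130).

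Fewer of these further genes were called with the block on single comparisons. In HA-NRG1 type III/+ against WT, Fads6 fell by 0.70 (limma adjusted p = 0.0285) and Them5 rose by 0.63 (0.0278). In the double against Q215X/+, Fads6 fell by 0.60 (0.0407), St8sia5 fell by 0.49 (0.0407), Acot7 rose by 0.46 (0.0415) and Them5 rose by 0.50 (0.0430). In the double against WT, beside both regulators, Fads6 fell by 0.66 (0.0270), Acsbg1 fell by 0.52 (0.0479), St8sia5 fell by 0.45 (0.0412), Acot7 rose by 0.47 (0.0341) and Them5 rose by 1.116 (0.00466).

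Promoter sequences are shown for 4 of the called genes, Me1 and Sgms1 that rose and Acot1 and Fads2 that fell, and for Fasn, which was not called. RefSeq promoter windows of 300 bases on GRCm38.p6, 250 before and 50 after a transcript start, were found for 29 of the 35 genes, 45 windows in all. Capitals mark the 4 motifs searched on both strands: TCACNCCAC, a core of SREBP sites, CCAAT, the NF-Y box, GGGCGG, the Sp1 box, and GTGGGCG, a core of sites for EGR factors, which include Egr2. The last 2 can overlap. Windows are given 5′ to 3′ on the strand of the gene, and for Me1 and Sgms1, which have several starts, the first listed is shown.
Me1, chr9:86695865-86696164, minus strand: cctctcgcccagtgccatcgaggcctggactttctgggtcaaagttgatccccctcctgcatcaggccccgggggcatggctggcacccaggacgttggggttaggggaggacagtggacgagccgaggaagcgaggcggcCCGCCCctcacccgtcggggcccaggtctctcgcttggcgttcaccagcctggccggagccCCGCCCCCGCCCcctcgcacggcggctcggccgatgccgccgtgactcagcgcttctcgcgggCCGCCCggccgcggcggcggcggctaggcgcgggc
Sgms1, chr19:32388463-32388762, minus strand: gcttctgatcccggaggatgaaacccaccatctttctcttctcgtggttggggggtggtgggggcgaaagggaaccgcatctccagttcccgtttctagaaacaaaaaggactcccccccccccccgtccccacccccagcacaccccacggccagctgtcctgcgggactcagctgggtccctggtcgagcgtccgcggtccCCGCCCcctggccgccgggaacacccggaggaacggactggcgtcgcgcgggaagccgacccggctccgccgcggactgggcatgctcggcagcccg
Acot1, chr12:84009252-84009551, plus strand: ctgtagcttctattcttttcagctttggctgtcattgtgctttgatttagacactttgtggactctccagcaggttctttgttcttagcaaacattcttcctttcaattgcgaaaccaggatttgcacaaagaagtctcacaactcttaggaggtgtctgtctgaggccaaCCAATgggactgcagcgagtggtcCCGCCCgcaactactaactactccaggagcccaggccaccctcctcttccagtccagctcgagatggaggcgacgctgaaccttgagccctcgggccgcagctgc
Fads2, chr19:10101454-10101753, minus strand: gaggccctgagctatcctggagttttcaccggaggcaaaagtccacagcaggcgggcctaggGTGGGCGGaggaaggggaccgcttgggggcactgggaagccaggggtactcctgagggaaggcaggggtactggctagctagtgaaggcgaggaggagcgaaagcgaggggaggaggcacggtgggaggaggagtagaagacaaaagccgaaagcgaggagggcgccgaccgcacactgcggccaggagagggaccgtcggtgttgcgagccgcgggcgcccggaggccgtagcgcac
Fasn, chr11:120824498-120824797, minus strand: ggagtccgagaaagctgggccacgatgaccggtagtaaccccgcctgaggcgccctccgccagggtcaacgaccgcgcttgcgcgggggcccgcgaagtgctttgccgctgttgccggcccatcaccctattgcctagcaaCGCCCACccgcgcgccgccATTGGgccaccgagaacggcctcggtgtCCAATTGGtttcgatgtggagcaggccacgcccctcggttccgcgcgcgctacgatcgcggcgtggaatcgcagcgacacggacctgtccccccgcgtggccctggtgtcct

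The Me1 window held 4 Sp1 boxes and no other motif, and the Sgms1 window shown held 1 Sp1 box. The Acot1 window held 1 NF-Y box, 79 bases before the start, and 1 Sp1 box. The Fads2 window held 1 EGR core that overlaps an Sp1 box, 188 bases before the start. The Fasn window held 3 NF-Y boxes and 1 EGR core. Over the 45 windows, the SREBP core was in 2.22%, against 1.24% of 32851 promoter windows of all genes, the NF-Y box in 48.9% against 37.4%, the Sp1 box in 60% against 35.7% and the EGR core in 20% against 7.97%. The EGR core was in windows of 8 genes, namely Acly, Fasn, Srebf1, Fads2, Acsl1, Degs2, Sgms1 and Hexa. Windows of 1 gene can overlap, and a match of letters is no evidence of binding.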

How the data were processed

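The authors deposited 1 table of FPKM values per gene for 8 libraries of poly A selected RNA. The submitters' processing notes name TopHat2 2.0.9, Cufflinks 2.2.0 and the build mm10, without roles. The annotation, strand handling and filters were not stated in the labels. The header has 1 name fewer than the lines have fields, owing to an empty field after the symbol, so names and values were matched in order. The stem hani was taken as HA-NRG1 type III/+, the only genotype left without a stem.

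Analysis used log2(FPKM + 1) and limma 3.58.1 (eBayes with trend, R 4.3.3). A model of 4 group means, with 4 residual degrees of freedom, was fitted to the 12530 genes whose mean was 1 FPKM or more. A call is an adjusted p under 0.05 (Benjamini-Hochberg, over all genes tested). Differences on this scale understate the change of low genes.

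A second fit added the set as replicate block, leaving 3 residual degrees of freedom. Differences between set 1 and set 0 correlated across genes at 0.118 to 0.304 in all 6 pairs of genotypes, so sets were treated as paired. This pairing comes from the values, since no label states it. Adjusted p-values of further pathway genes are from the fit with the block unless stated. Depth is unknown, and steps among low values gave relative depths of 0.761 to 1.13.

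The genes and lists were chosen with earlier results of these data known. A log2 difference with its test was given where the unadjusted p was under 0.05 without the block or the adjusted p under 0.05 with it, and other genes named were chosen for their role. Genes of other lists were named where called, except some genes that are not reported here. Positions, promoters and transcripts come from RefSeq and GENCODE on GRCm38. The model was tested on simulated data.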

Additional observations from a re-analysis of the deposited data

How the results depend on the processing

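Without the block none of the 43 pairs of gene and comparison chosen by the rule on p-values for the 35 genes was called. None changed sign in any of the 24 alternative fits. The pairs were chosen on p-values from the same libraries that these fits use again. A constant sign was therefore likely beforehand and is no separate support. The number of the 35 genes called, which was 0 in every comparison without the block, became 4 with the replicate block in HA-NRG1 type III/+ against WT, 4 in the double against Q215X/+, 7 in the double against WT and 10 over both backgrounds. With the block and a term for sex it was 2 in the double against WT and 4 over both backgrounds, and with quantile normalization it was 1 over both backgrounds (Sgms1, limma adjusted p = 0.0485). Leaving out 1 library, without or with the block, gave 0 to 3 in HA-NRG1 type III/+ against WT, 0 to 7 in the double against WT and 0 to 9 over both backgrounds. A pseudocount of 0.1, no filter, median-of-ratios scaling, eBayes without trend and a term for sex alone left these counts at 0. The values hold no read counts, so how far depth limits the low genes, such as Sgms2 and Degs2, is unknown.

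The median log2 difference of the 35 genes in Q215X/+ against WT was −0.03, and −0.107 with a term for sex and −0.109 to −0.00840 without 1 library. In HA-NRG1 type III/+ against WT it was 0.02, and −0.0450 to 0.0762 without 1 library. In the double against WT it was −0.07, and −0.0166 with quantile normalization and −0.142 to 0.0161 without 1 library. Over both backgrounds it was 0.04, and −0.0319 to 0.0593 without 1 library. For the interaction it was −0.04, and 0.0538 with a term for sex. The cause of these shifts was not tested.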

Other observations

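Cidea and Ucp1, which mark brown and beige fat cells, stood at 6.86 and 3.83 FPKM in the set 0 library of Q215X/+, while the other 7 libraries held at most 0.276 FPKM of Cidea and 0.0632 of Ucp1. The same library held the lowest level of Adipoq, at 28.1 FPKM. These values concern 1 library and were chosen after they were seen.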
